A study of Mus musculus with 25 samples.

Results

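Macrophages made in culture from pre-B cells were compared with epithelial crypts of the mouse colon, a blood cell program against a gut program, on Affymetrix mouse expression arrays. The comparison used 4 of the 25 arrays of the series: the 2 arrays of induced macrophages that carried a scramble shRNA, and the 2 arrays of freshly harvested adult colon. Both groups were picked by their labels alone, and every annotated gene was kept, so the account covers 18193 genes, of which 13851 passed the filter on low values and were tested. The macrophages came from C10, a pre-B cell line, so both of their arrays represent 1 line in culture. The cells were first infected with a lentivirus carrying a scramble shRNA, a hairpin with no intended target, and selected with puromycin. They were then converted with 100 nM of β-estradiol in medium with IL-3 and CSF-1, given as 10 nM. By the published conversion method that the labels cite, estradiol switches on a C/EBPα fused to the hormone-binding part of the estrogen receptor. The crypts came from 8-week-old Rag2gammac-/- mice, a strain that lacks mature B, T and NK cells. They were released from the colon with EDTA and dissociated with 0.25% trypsin. RNA of both groups was amplified from 100 ng by the same protocol. The labels do not say whether the 2 arrays of a group hold separate cultures or animals. The p-values thus measure a spread between replicate arrays that may be technical. That spread was pooled with 2 further groups of induced macrophages, with Ebf1 or Pou2af1 shRNA, of 2 arrays each. A cultured line was set against a tissue, and line, strain and culture cannot be told apart from cell type here.

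Values are log2 signals per probe set that the authors computed with RMA, so a difference of 1 is a doubling on the array. Differences are given as macrophages minus colon with the standard error (SE) of limma, a moderated linear model fitted to all tested genes at once. A gene was called where its Benjamini-Hochberg adjusted p was under 0.05. Since these unlike cells differed in most genes, a second count took called genes with a log2 difference of at least 3, which is 8-fold. List counts of 0 by that rule were also 0 at an unadjusted limma p under 0.05. Where a group lay under the 40th percentile of its arrays, at 5.57 to 5.60 here, its level is near background and the difference is no exact size. Levels are not compared between genes, since each probe set has its own response.

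Macrophages are phagocytes of the blood lineage. They depend on the transcription factor PU.1, encoded by Spi1, and on C/EBP factors, live on CSF-1 signals through Csf1r, and carry receptors for antibodies, complement and microbes whose signals run through ITAM adaptors and Syk. Pre-B cells use another set of factors, with Ebf1 and Pax5 at its centre, and signal through a pre-B receptor built on Cd79a and Cd79b. C/EBPα is known to convert pre-B cells into macrophage-like cells. Colon crypts are glands of a single-layered epithelium. Stem cells at their base give rise to absorptive colonocytes and mucus-producing goblet cells under CDX, HNF4A, HNF1, KLF and ETS-family factors.

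Promoters of genes on either side of the comparison are shown first, because factors of both programs have short known motifs. PU.1 binds around GAGGAAGT, CDX factors around TTTATNG and HNF1 factors around GTTAATNAT. Both strands of the 250 bases before each gene start were searched in RefSeq promoters of GRCm38.p6, which held 11115 of the 13851 tested genes. Letters that match are in capitals, and a capital stretch may be the motif or its reverse complement. Genes of 1 chromosome were set aside when the sequences to show were chosen. Among the remaining genes, members of the Fc receptor and macrophage surface lists were searched. The first 3 sequences are the only such members with a single annotated start, an 8-fold higher level in macrophages and a PU.1 core. They belong to Cd37, a leukocyte tetraspanin, Fcgr4, an activating antibody receptor, and Vav1, an exchange factor downstream of such receptors.
Cd37, chr7:45238840-45239089, minus strand: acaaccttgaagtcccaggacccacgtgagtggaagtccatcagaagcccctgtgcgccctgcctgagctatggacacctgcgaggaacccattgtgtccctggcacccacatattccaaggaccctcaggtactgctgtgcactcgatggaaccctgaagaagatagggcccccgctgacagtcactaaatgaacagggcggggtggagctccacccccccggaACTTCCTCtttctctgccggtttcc
Fcgr4, chr1:171018676-171018925, plus strand: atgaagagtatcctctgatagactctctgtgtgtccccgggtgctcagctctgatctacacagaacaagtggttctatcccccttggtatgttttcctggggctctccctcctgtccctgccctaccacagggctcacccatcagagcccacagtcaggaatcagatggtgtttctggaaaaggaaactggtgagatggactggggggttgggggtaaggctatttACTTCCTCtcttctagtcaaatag
Vav1, chr17:57278850-57279099, plus strand: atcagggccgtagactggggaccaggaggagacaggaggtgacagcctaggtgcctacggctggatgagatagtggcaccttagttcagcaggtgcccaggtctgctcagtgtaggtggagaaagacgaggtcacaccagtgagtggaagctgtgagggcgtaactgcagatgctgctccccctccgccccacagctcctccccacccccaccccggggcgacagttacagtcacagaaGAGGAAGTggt
The others come from members of the brush border and lipid, colonocyte transport and goblet cell lists outside the chromosome set aside. These members were 8-fold higher in colon and have a single annotated start. Slc26a3, a chloride-bicarbonate exchanger of colonocytes, and Cdhr2, a protocadherin that links microvilli, had the largest differences among 3 such members with an HNF1 core. Fabp2, an intestinal fatty acid binding protein, had the largest among 7 such members with a CDX core.
Slc26a3, chr12:31437969-31438218, plus strand: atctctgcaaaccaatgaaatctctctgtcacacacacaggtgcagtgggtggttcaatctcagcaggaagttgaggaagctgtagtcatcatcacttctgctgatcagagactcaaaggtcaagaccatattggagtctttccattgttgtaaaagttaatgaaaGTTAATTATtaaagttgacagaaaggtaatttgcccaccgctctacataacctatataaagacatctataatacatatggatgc
Cdhr2, chr13:54701213-54701462, plus strand: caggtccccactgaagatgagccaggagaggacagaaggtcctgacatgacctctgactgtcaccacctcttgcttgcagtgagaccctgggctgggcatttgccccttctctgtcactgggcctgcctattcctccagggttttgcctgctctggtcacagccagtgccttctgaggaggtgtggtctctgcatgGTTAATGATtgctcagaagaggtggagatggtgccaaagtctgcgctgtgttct
Fabp2, chr3:122894822-122895071, plus strand: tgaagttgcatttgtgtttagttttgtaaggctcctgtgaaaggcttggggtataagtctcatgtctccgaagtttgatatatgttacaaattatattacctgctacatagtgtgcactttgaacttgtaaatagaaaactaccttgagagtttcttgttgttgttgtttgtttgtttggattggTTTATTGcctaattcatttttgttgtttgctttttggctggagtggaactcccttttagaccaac
Their PU.1 cores began 25, 24 and 11 bases before the start in Cd37, Fcgr4 and Vav1, and the gut motifs began 84, 54 and 65 bases before it in Slc26a3, Cdhr2 and Fabp2. Shares were counted among promoters of genes 8-fold higher on either side, of tested genes, from which those were drawn, and of all 32851 promoters. A gene counted once per annotated start, so promoters of 1 gene are not independent. The macrophage side held 590 promoters of 426 genes and the colon side 1098 of 835 genes. Fc receptor and ITAM signalling genes held 35 promoters of 27 genes, and pre-B receptor and B signalling genes 30 of 26 genes. A PU.1 core stood in 37 of 590 promoters (6.27%) on the macrophage side, in 26 of 1098 (2.37%) on the colon side, in 2.56% of those of tested genes and in 2.44% of all. By list, it stood in 4 of 35 promoters (11.4%) of Fc receptor and ITAM signalling genes, 2 of 54 (3.7%) of macrophage surface genes, 4 of 30 (13.3%) of pre-B receptor and B signalling genes, and 0 of 40 and 0 of 36 of junction and of brush border and lipid genes. The CDX core was found in 84 of 1098 promoters (7.65%) on the colon side, 36 of 590 (6.1%) on the macrophage side, 6.54% of those of tested genes and 9.81% of all, and it stood in 7 of 36 promoters (19.4%) of brush border and lipid genes and 3 of 40 (7.5%) of junction genes. For the HNF1 core the shares were 1.0% on the colon side, 0.169% on the macrophage side, 0.446% among tested genes and 0.737% of all. The octamer ATGCAAAT, bound by the POU factors that Pou2af1 assists, stood in 3 of 30 promoters (10.0%) of pre-B receptor and B signalling genes, 1.02% of those on the macrophage side, 1.23% among tested genes and 1.6% of all. The C/EBP core TTGCGCAA was in 1 of 590 promoters on the macrophage side, 0 of 1098 on the colon side and 0.234% of those of tested genes. The EBF1 palindrome CCCNNGGG was in 17.3%, 18.2% and 15.7% of the same sets, and the HNF4A core CAAAGTCCA in 0.508%, 0.82% and 0.389%. These matches describe letters, and binding was not measured.

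Markers mostly went with the labels in both groups, with exceptions among the macrophage, B lineage and hepatocyte genes. Summed over a list as a mean log2 signal, 4 genes of any leukocyte averaged 13.02 and 13.04 in the macrophage arrays and 8.72 and 8.45 in colon, and 10 macrophage markers 11.66 and 11.58 against 7.79 and 7.66. Of those 10, Adgre1, which encodes a surface protein used as a macrophage marker, lay under the 40th percentile in both macrophage arrays. The 8 colon epithelium markers averaged 5.38 and 5.36 in macrophages, with 5 of 8 under the percentile, against 12.73 and 12.65 in colon. The 7 B lineage markers averaged 9.29 and 9.39 in macrophages, with 0 of 7 near background, against 6.36 and 6.31 in colon. Among these, Blnk alone was called higher in colon. The 4 hepatocyte markers averaged 5.17 and 5.44 in macrophages and 7.73 and 7.63 in colon. The 4 T and NK cell markers were at 4.95 and 5.03 against 4.95 and 5.20, with 3 of 4 near background in each group. The mean of the 5 mesenchyme markers was 6.27 and 6.32 in colon against 5.32 and 5.38 in macrophages. Of the 5, only Col1a1 and Col3a1 were called higher in colon. Dcn and Pdgfra were near background in all 4 arrays, and Myh11 was not called. In bulk samples, fewer cells of a type and less RNA per cell cannot be told apart. Replicates correlated at 0.994 in macrophages and 0.986 in colon over the tested genes, and arrays of different groups at 0.595 to 0.597. Poly-A spike probe sets averaged 3.84 to 4.09 in the 4 arrays, against 8.30 to 10.4 in the livers and the iHep cultures, so both groups lacked the spike signal. The groups differed in sex by 4 genes chosen after their values were seen. Xist, the RNA that silences an X chromosome in females, was at 5.73 and 5.34 in macrophages and 12.16 and 12.25 in colon, and the Y-linked Eif2s3y was at 11.34 and 11.18 in macrophages and 6.25 and 6.36 in colon. Kdm5d and Uty, also Y-linked, differed by 4.40 ± 0.13 and 4.54 ± 0.11. Sex and cell type cannot be told apart.

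Of the 13851 genes tested, 9369 (67.6%) were called. In macrophages 5280 genes (38.1%) were higher, and in colon 4089 (29.5%). The groups of all 9369 called genes did not overlap. With so few arrays a call nearly fixes this, and genes not called, such as Cebpd and Stat3, could also lack overlap. The share without overlap over all tested genes was not counted. At 8-fold, the order turned: 572 genes (4.13%) were higher in macrophages and 1085 (7.83%) in colon. Counts of the lists below are to be read against these shares of all tested genes. The median difference over all tested genes was 0.149 and the median SE 0.152. Of the 572 genes, colon lay under its 40th percentile in 242, and of the 1085, macrophages did in 691, so many of these sizes were limited by background.

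**Figure D1:**
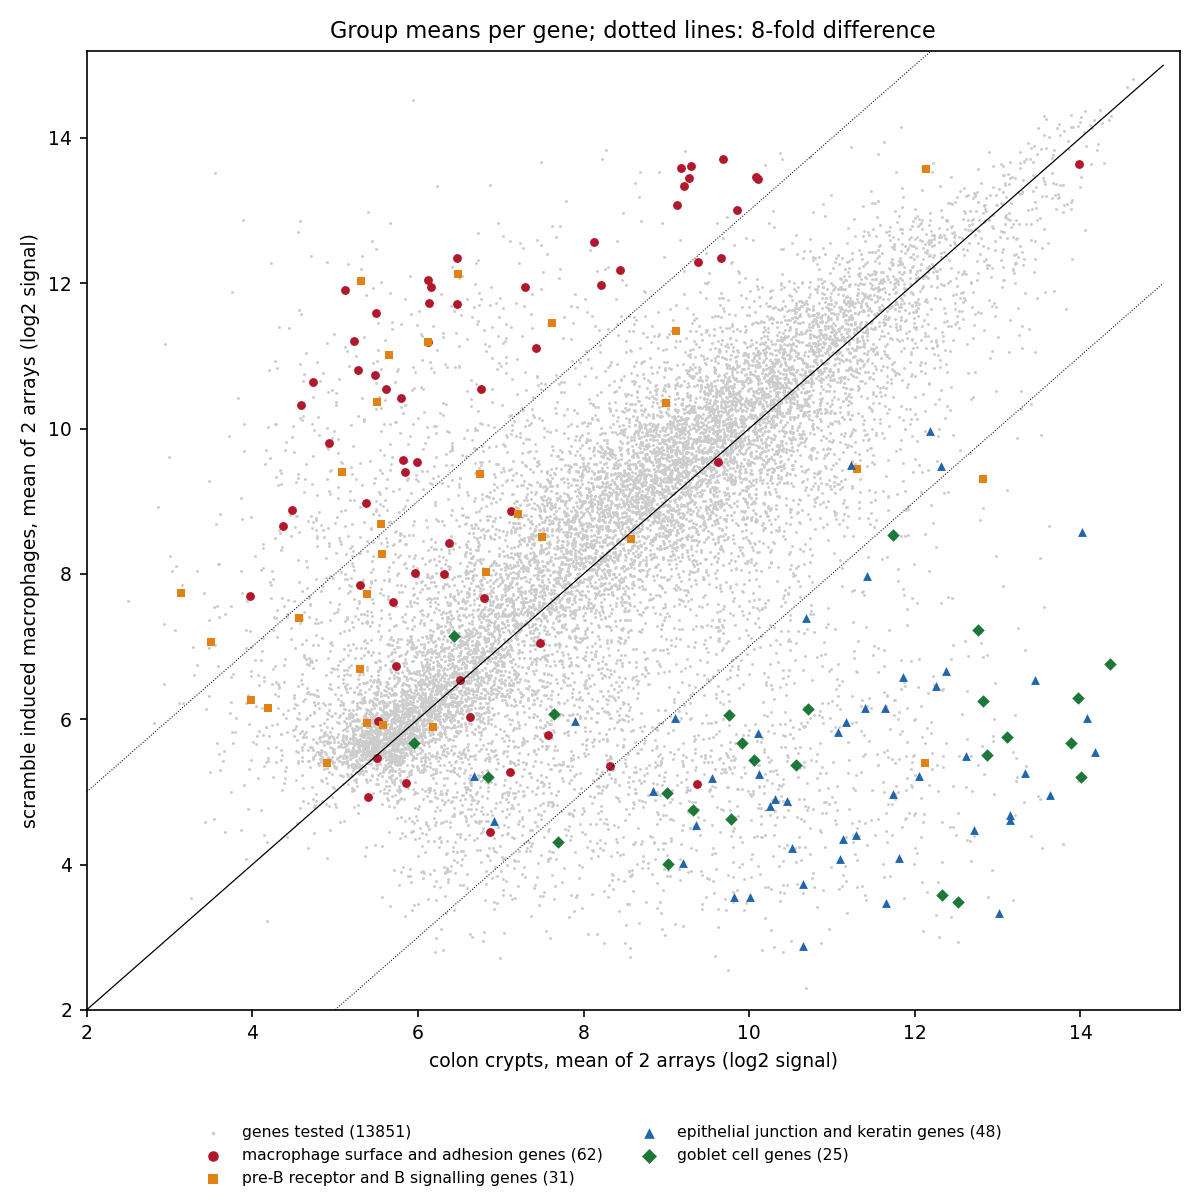
Mean log2 signal of each tested gene in colon (x axis, 2 arrays) and in scramble induced macrophages (y axis, 2 arrays). Grey points are the 13851 genes tested, coloured marks are members of 4 lists, the solid line marks equal signal and dotted lines an 8-fold difference. Junction and goblet genes lie in the lower right, and macrophage surface and B signalling genes mostly in the upper left.

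Matrix proteases led the genes higher in macrophages. Mmp12, the macrophage elastase, was at 13.51 and 13.51 in macrophages and 3.94 and 3.17 in colon, a difference of 9.96 ± 0.23 (limma adjusted p = 2.61e-08). Mmp13, a collagenase, differed by 8.98 ± 0.13 and Mmp8, the neutrophil collagenase, by 7.39 ± 0.25. Hsd11b1, which regenerates active glucocorticoid, differed by 8.16 ± 0.17. Serpinb2, an inhibitor of plasminogen activators, was at 11.82 and 11.95 in macrophages and 3.63 and 3.88 in colon. St8sia4, a polysialyltransferase, differed by 7.59 ± 0.54, with colon replicates far apart at 6.41 and 4.37. The other genes of the 15 highest were Mycn, Ifi209, Pou2af1, Stap1, Pla1a, Fcgr2b, Pla2g7, Olfm1 and Ifitm6, at differences from 7.11 to 8.57. For Mycn, the relative of Myc, the arrays were at 14.52 and 14.52 in macrophages and 6.18 and 5.71 in colon, but its 3 tested probe sets differed by −3.58 to 8.57 and so did not share a direction. Leading the other side were Cdh1, which encodes E-cadherin of epithelial junctions, at −9.69, and Sval1, Hao2, Lypd8 and Dmbt1. Cdh1 was at 3.40 and 3.27 in macrophages and 13.02 and 13.01 in colon. Lypd8, a secreted protein that keeps flagellated bacteria off the colon epithelium, was at 4.32 and 4.24 in macrophages and 13.78 and 13.81 in colon. The others among the 15 lowest ran from −8.81 for Lgals3 to −9.33 for Ugt2b34, a glucuronidating enzyme.

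**Figure D2:**
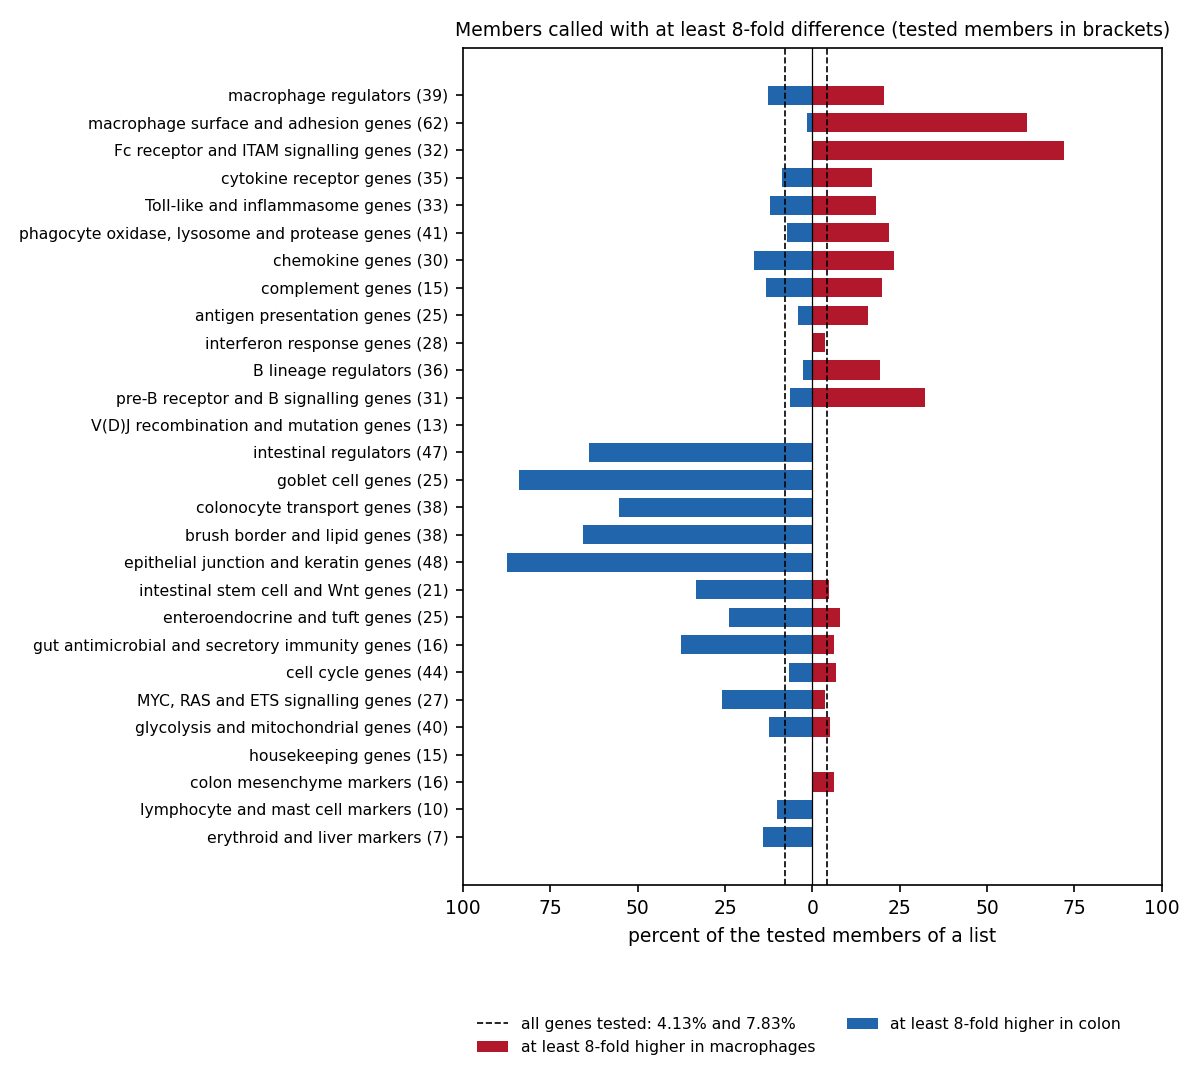
For each gene list, the percent of its tested members called with at least an 8-fold difference, to the right when higher in macrophages and to the left when higher in colon; both axes start at 0. Dashed lines give the shares over all genes tested, 4.13% and 7.83%. Fc receptor and surface genes reach furthest to the right, and junction and goblet genes furthest to the left.

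Receptors for antibodies and their signalling chain stood almost wholly on the macrophage side. Of 32 tested Fc receptor and ITAM signalling genes, 31 were called higher in macrophages and 1 in colon, and 23 (8-fold) stood above, with a median log2 difference of 4.39 against 0.149 for all genes. Fcgr2b, the inhibitory receptor for IgG, was at 12.85 and 12.82 in macrophages and 5.62 and 5.70 in colon, a difference of 7.17 ± 0.11 (limma adjusted p = 1.16e-08). Fcgr1, the high-affinity receptor, was at 11.36 and 11.26 in macrophages and 5.30 and 4.68 in colon, and Fcgr3, an activating receptor, at 13.71 and 13.63 in macrophages and 8.02 and 6.95 in colon. Tyrobp, the ITAM adaptor DAP12, differed by 4.02 ± 0.11 and the kinase gene Syk by 1.36 ± 0.15. Lcp2, an adaptor scaffold, differed by 5.58 ± 0.21, Was, which drives actin branching, by 5.59 ± 0.16, and Coro1a, an actin-binding coronin of leukocytes, by 5.35 ± 0.10. The lone exception was Blnk, the linker between the B cell receptor and its downstream enzymes, at 9.47 and 9.42 in macrophages and 11.28 and 11.32 in colon, which was higher in colon by 1.86 ± 0.11.

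Surface and adhesion genes of macrophages were mostly higher in macrophages. Of 62 tested, 49 were called higher in macrophages and 9 in colon; 38 and 1 passed 8-fold, and the median was 3.69. The count higher in colon was 5 without macrophage replicate 2 and 6 without colon replicate 2. C3ar1, receptor of the complement fragment C3a, was at 11.75 and 12.06 in macrophages and 5.16 and 5.09 in colon. Clec7a, which binds fungal β-glucan, was at 12.45 and 12.26 in macrophages and 6.43 and 6.51 in colon, and Itgb2, the β2 integrin chain, at 12.07 and 12.01 in macrophages and 6.13 and 6.11 in colon. The α chains Itgam and Itga4 differed by 3.60 ± 0.21 and 5.99 ± 0.13. Cd36, a scavenger receptor, differed by 5.73 ± 0.11, Cd14, a co-receptor for endotoxin, by 3.16 ± 0.11, and Lyz2, lysozyme of myeloid cells, by 4.31 ± 0.11. Among the 9 on the other side was Mertk, a receptor for the uptake of dying cells, at 4.98 and 5.24 in macrophages and 9.54 and 9.21 in colon. Mrc1, the mannose receptor, was at 4.66 and 4.23 in macrophages and 6.83 and 6.90 in colon, Ms4a7 differed by −1.83 ± 0.27 and Trem1 by −2.96 ± 0.13. For Adgre1 the values were 5.47 and 4.78 in macrophages and 5.64 and 6.08 in colon, a difference of −0.74 ± 0.26 (limma adjusted p = 0.0363). That call was lost without macrophage replicate 2 (limma adjusted p = 0.22) or without colon replicate 2 (0.182). Its macrophage arrays and those of Mertk and Mrc1 thus lay near background while colon lay above. The colon arrays also held Csf1r at 9.07 and 9.19 and Ptprc, the leukocyte antigen CD45, at 7.53 and 7.06; 1 of 10 macrophage markers was near background there, and the part of blood cells in the crypts was not tested.

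**Figure D3:**
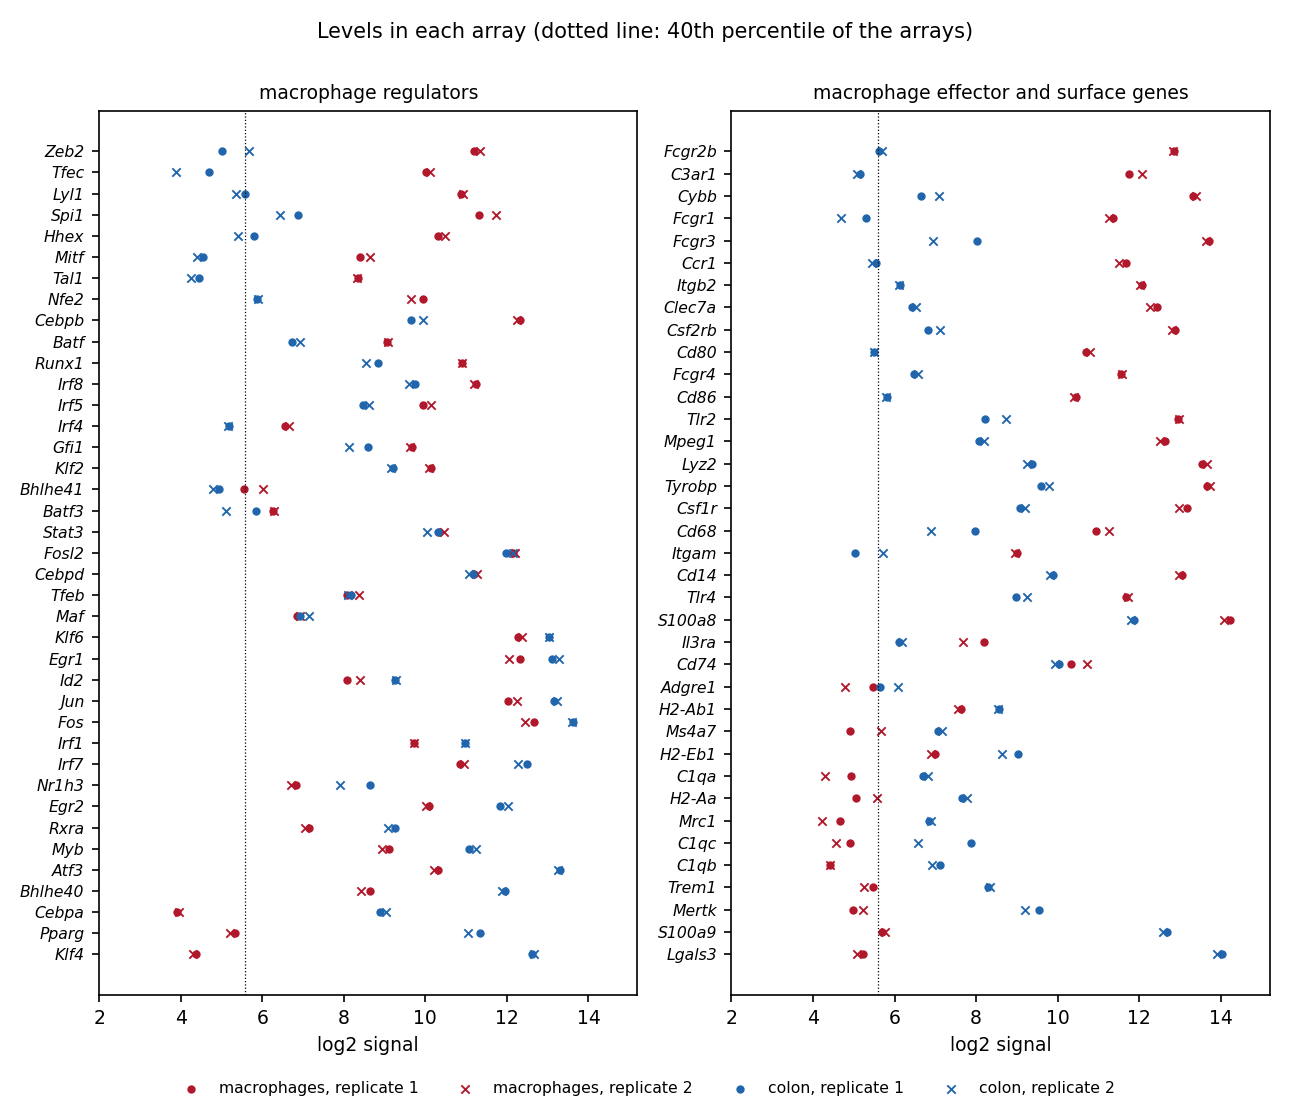
Log2 signal (x axis) in each array for the 39 macrophage regulators (left) and for macrophage surface, receptor and effector genes (right), ordered by the difference. Red marks are the 2 macrophage arrays, blue marks the 2 colon arrays, and the dotted line is the mean 40th percentile of the 4 arrays. Replicates lie close together, and Klf4, Pparg, Cebpa, Lgals3, S100a9 and Mertk form the lower end, where colon is high.

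Regulators of macrophages split almost evenly. Of 39 tested, 18 were called higher in macrophages and 16 in colon, against 38.1% and 29.5% of all tested genes. Past 8-fold there were 8 and 5, and the median was 0.12. Spi1 was at 11.33 and 11.74 in macrophages and 6.88 and 6.43 in colon, a difference of 4.88 ± 0.22 (limma adjusted p = 6.95e-07). Zeb2, a repressor that keeps macrophage identity, was at 11.19 and 11.34 in macrophages and 5.02 and 5.68 in colon. Tfec and Mitf, related basic helix-loop-helix factors of macrophages and osteoclasts, differed by 5.78 ± 0.23 and 4.05 ± 0.15. The blood factors Lyl1, Hhex, Tal1 and Nfe2 differed by 5.44, 4.79, 3.99 and 3.91. Smaller were the differences of Runx1, 2.20 ± 0.13, Irf8, 1.56 ± 0.11, and Irf5, 1.48 ± 0.13, which drive monocyte development and inflammatory transcription. Among the C/EBP genes, Cebpb was higher by 2.50 ± 0.13, Cebpd was at 11.20 and 11.26 in macrophages and 11.17 and 11.08 in colon and was not called, and Cebpa was at 3.92 and 3.97 in macrophages and 8.89 and 9.04 in colon. The endogenous Cebpa signal of the macrophages was thus near background and lower than in colon by 5.02 ± 0.15; whether the probe set sees the fused C/EBPα is not known from these data.

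The 16 regulators higher in colon were led by Klf4 and Pparg, both also on the list of intestinal regulators. Klf4, a factor of monocytes that also directs goblet cell maturation, was at 4.38 and 4.30 in macrophages and 12.61 and 12.66 in colon. Pparg, a lipid-sensing nuclear receptor of alveolar macrophages and colonocytes, was at 5.32 and 5.21 in macrophages and 11.34 and 11.05 in colon. Bhlhe40, a repressor, differed by −3.39 ± 0.13, and Atf3, a stress factor, by −3.01 ± 0.14. Myb, a progenitor factor also active in crypts, was at 9.12 and 8.93 in macrophages and 11.06 and 11.23 in colon. The early response genes Fos, Jun, Egr1 and Egr2 were lower in macrophages by 1.06 ± 0.12, 1.06 ± 0.12, 1.00 ± 0.13 and 1.88 ± 0.14; only 1 of the 2 tested probe sets of Jun had that sign. Stat3, Fosl2, Cebpd, Tfeb and Maf were not called, with differences between −0.15 and 0.22. With the mean of its probe sets Fosl2 was called lower, at −0.41.

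Cytokine receptors included those for both added growth factors. Of 35 tested, 23 were called higher in macrophages and 9 in colon, with 6 and 3 past 8-fold and a median of 1.53. Csf1r was at 13.18 and 12.99 in macrophages and 9.07 and 9.19 in colon, a difference of 3.95 ± 0.12 (limma adjusted p = 7.71e-08). Csf2rb, the β chain shared by the receptors for IL-3, IL-5 and GM-CSF, was at 12.88 and 12.79 in macrophages and 6.81 and 7.12 in colon, and Csf2rb2, the β chain used by IL-3 alone, at 10.96 and 10.86 in macrophages and 5.63 and 3.92 in colon. The α chains Il3ra and Csf2ra differed by 1.79 ± 0.17 and 2.02 ± 0.13. Il6ra was higher by 4.84 ± 0.21 and Ifnar2, a chain of the type I interferon receptor, by 4.24 ± 0.12. Il7r, the receptor of early lymphocytes, was at 7.14 and 6.98 in macrophages and 3.32 and 3.69 in colon. Higher in colon were Il13ra1, a chain of the IL-13 receptor, at 6.22 and 6.35 in macrophages and 11.45 and 11.45 in colon, the IL-1 receptors Il1r1 and Il1r2, at −3.16 and −2.51, Kit at −3.10, Tnfrsf1a at −2.42 and Ifngr1 at −1.70. Csf3r, the G-CSF receptor of granulocytes, was at 5.18 and 5.39 in macrophages and 7.35 and 8.06 in colon. Il2rg, which encodes the common gamma chain missing in the colon strain, had no value here.

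Sensors of microbes were called in both directions, as tested genes were as a whole. Of 33 Toll-like and inflammasome genes tested, 16 were called higher in macrophages and 12 in colon, against 38.1% and 29.5% of all tested genes. Past 8-fold there were 6 and 4, against 4.13% and 7.83% of all tested genes. Tlr2 was at 12.96 and 12.98 in macrophages and 8.22 and 8.74 in colon, Tlr7 at 8.78 and 8.27 in macrophages and 4.65 and 4.92 in colon, and Tlr4, the endotoxin receptor, differed by 2.57 ± 0.13. The cytokine gene Il1b differed by 3.01 ± 0.10. In colon, Nlrp6, a sensor of the gut epithelium, was at 10.76 and 10.47 against 5.20 and 5.47. Tlr1 was lower in macrophages by 4.85 ± 0.17, Casp1, the inflammasome protease, by 4.29 ± 0.13, Il18, its substrate, by 2.55 ± 0.12, and Tlr3 by 2.34 ± 0.12. Pycard, the adaptor of inflammasomes, was at 13.09 and 13.11 in macrophages and 13.11 and 13.03 in colon and was not called.

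Oxidase and lysosomal genes leaned to the macrophages. Of 41 phagocyte oxidase, lysosome and protease genes tested, 28 were called higher in macrophages and 6 in colon, with 9 and 3 past 8-fold and a median of 1.33. Cybb, the catalytic subunit of the phagocyte oxidase, was at 13.32 and 13.38 in macrophages and 6.64 and 7.09 in colon, and its cytosolic partners Ncf1 and Ncf4 differed by 5.05 ± 0.14 and 5.57 ± 0.36. Camp, an antimicrobial peptide of granules, differed by 4.56 ± 0.25. The granule genes of neutrophil precursors Mpo, Elane and Ctsg were at 4.45 and 4.51, 4.91 and 4.71 and 4.39 and 4.36 in macrophages, all under the 40th percentile. S100a9 and S100a8 encode the subunits of calprotectin, yet stood on opposite sides. S100a9 was at 5.70 and 5.76 in macrophages and 12.68 and 12.58 in colon, lower in macrophages by 6.90 ± 0.14 (limma adjusted p = 1.81e-08). S100a8, chosen after its values were seen, was at 14.23 and 14.08 in macrophages and 11.86 and 11.80 in colon, higher in macrophages by 2.32 ± 0.13. Both genes were measured by 1 probe set each. Ctsh, a cathepsin, and Acp5, tartrate-resistant phosphatase, were higher in colon, at −5.20 and −3.52.

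Chemokine and complement genes were also called in both directions. Of 30 chemokine genes tested, 13 were called higher in macrophages and 11 in colon, against 38.1% and 29.5% of all tested genes. Past 8-fold there were 7 and 5, against 4.13% and 7.83% of all tested genes. Ccl2, which draws monocytes, was at 12.58 and 12.81 in macrophages and 6.86 and 6.60 in colon, and Ccl9 at 13.74 and 13.69 in macrophages and 8.30 and 8.14 in colon. The receptors Ccr1 and Ccr2, which bind such inflammatory chemokines, differed by 6.09 ± 0.11 and 3.72 ± 0.19. Cxcl1, which draws neutrophils, was at 4.96 and 5.31 in macrophages and 11.51 and 11.71 in colon, and Ccl28, a mucosal chemokine, differed by −4.68 ± 0.13. Of 15 complement genes tested, 5 were called higher in macrophages and 7 in colon, to be read against the same shares. The macrophage side held the receptors C3ar1, C5ar1, Itgam and Itgax and properdin, Cfp, at 4.63. The 3 chains of C1q, made mainly by tissue macrophages, were all higher in colon: C1qa was at 4.92 and 4.29 in macrophages and 6.71 and 6.83 in colon, C1qb differed by −2.60 ± 0.17 and C1qc by −2.48 ± 0.38. Cfb, a protease of the alternative pathway, and Cd55, which shields cells from complement, were lower in macrophages by 4.43 ± 0.18 and 4.48 ± 0.15.

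Antigen presentation differed by component. Of 25 tested genes, 14 were called higher in macrophages and 7 in colon, with 4 and 1 past 8-fold and a median of 0.54; with all 25 arrays in the model these counts were 9 and 4. The T cell co-stimulators Cd80 and Cd86 were at 10.69 and 10.78 in macrophages and 5.49 and 5.49 in colon for Cd80 and differed by 4.62 ± 0.15 for Cd86. H2-DMa and H2-Ob, which edit the peptides of MHC class II, differed by 3.15 ± 0.18 and 4.18 ± 0.18. The class II chains themselves were lower in macrophages: H2-Aa was at 5.05 and 5.57 in macrophages and 7.65 and 7.79 in colon, H2-Eb1 differed by −1.88 ± 0.15 and H2-Ab1 by −0.95 ± 0.16. Ciita, the class II master regulator, was at 6.09 and 6.11 in macrophages and 5.75 and 5.94 in colon and was not called. Cd74, the invariant chain, chosen after its values were seen, was at 10.32 and 10.73 in macrophages and 10.03 and 9.94 in colon, and its call was lost without macrophage replicate 2 (limma adjusted p = 0.0753) or colon replicate 2 (0.0549). Among 28 interferon response genes, 10 were called higher in macrophages and 14 in colon, against 38.1% and 29.5% of all tested genes. Past 8-fold there were 1 and 0, the median was −0.30, and all 25 arrays in the model left 3 and 6 called. The exception in size was Ifitm1, an antiviral membrane protein, at 13.36 and 13.40 in macrophages and 8.59 and 8.66 in colon. Ifih1, a sensor of viral RNA, differed by −2.86 ± 0.14 and Ifit1 by −1.95 ± 0.11, while Oas1a, at 0.12, and Irf9, at −0.12, were not called.

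Regulators of the B lineage were more often higher in macrophages than in colon. Of 36 B lineage regulators tested, 22 were called higher in macrophages and 8 in colon, against 38.1% and 29.5% of all tested genes. Past 8-fold there were 7 and 1 regulators, and the median was 0.81. Several of these factors, such as Spi1, Runx1 and Irf8, also belong to the macrophage list. Pou2af1, the B cell coactivator OCA-B, was at 11.25 and 11.06 in macrophages and 2.88 and 3.01 in colon, a difference of 8.22 ± 0.13 (limma adjusted p = 1.16e-08). Ebf1, the factor that opens the B cell program, was at 8.43 and 8.42 in macrophages and 4.84 and 5.01 in colon. Pax5, which holds B cell identity, was at 7.08 and 7.85 in macrophages and 5.07 and 4.90 in colon, a difference of 2.48 ± 0.25, though its 2 tested probe sets differed by −0.04 and 2.48. Ikzf1, the lymphoid regulator Ikaros, differed by 5.66 ± 0.11, Mef2c by 5.43 ± 0.13 and Lef1, a Wnt effector of early B cells, by 4.89 ± 0.15. Tcf3, which encodes E2A, differed by only 0.83 ± 0.14. Foxo1, Ikzf3 and Xbp1 were not called, at −0.07, −0.04 and −0.21. With the mean of its probe sets Ikzf3 was called higher, at 0.42. Higher in colon were Ikzf2 at −3.48, Myb at −2.13, Sox4 at −1.43 and Id3 at −1.10.

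The receptor complex of pre-B cells was high as well. Of 35 pre-B receptor and B signalling genes measured, 31 were tested; 24 were called higher in macrophages and 3 in colon, with 10 and 2 past 8-fold and a median of 2.23. Cd79b was at 11.97 and 12.08 in macrophages and 5.37 and 5.26 in colon and Cd79a at 10.21 and 10.53 in macrophages and 5.35 and 5.66 in colon; these are the signalling chains of the receptor. The surrogate light chain genes Igll1, Vpreb1 and Vpreb3 differed by 2.70 ± 0.20, 2.62 ± 0.21 and 2.35 ± 0.24. The μ heavy chain Ighm was at 8.84 and 8.81 in macrophages and 7.26 and 7.17 in colon, with 5 of its 7 tested probe sets sharing that sign. Btk, a kinase used by B and myeloid cells, differed by 4.32 ± 0.30, Bank1, a B cell scaffold, by 4.60 ± 0.18 and Cd93, found on early B cells and myeloid cells, by 5.64 ± 0.13. Near background in both groups were Ms4a1 and Blk: Ms4a1, which encodes CD20, was at 3.96 and 3.85 in macrophages, and Blk at 4.91 and 5.22. The 3 exceptions were Cd9 at −6.73, Cd24a at −3.53 and Blnk at −1.86, genes that epithelium also expresses in these arrays.

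Over all tested genes, 38.1% were called higher in macrophages and 29.5% in colon, with 4.13% and 7.83% past 8-fold. Of 13 V(D)J recombination and mutation genes tested, 3 were called higher in macrophages and 3 in colon, with 0 past 8-fold in either direction. Without macrophage replicate 1 the count higher in macrophages was 1, without any other array it was 2, and with all 25 arrays in the model it was 1. Rag1, which cuts the receptor genes, was at 3.26 and 3.17 in macrophages and 2.97 and 3.01 in colon, all near background. Dntt, which adds bases at the joints, was at 6.35 and 6.40 in macrophages and 5.96 and 5.88 in colon and was not called. Rag2, the gene named in the colon strain, was at 5.23 and 5.23 in macrophages and 6.61 and 7.12 in colon, lower in macrophages by 1.64 ± 0.17 (limma adjusted p = 8.35e-05). Where its probe set lies relative to the deleted part is not known here, so its level checks nothing about the strain. Xrcc4 and Ung, repair genes, were called as well, at 1.00 and −1.53.

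Compared with the 19 arrays of the series that held no induced macrophages, part of these genes stood above every one of them in both scramble arrays. That was so for 12 of 35 pre-B receptor and B signalling genes (34.3%), 11 of 36 B lineage regulators (30.6%) and 2 of 14 V(D)J genes (14.3%). The shares were 39 of 65 for macrophage surface genes, 15 of 36 (41.7%) for cytokine receptors and 11 of 39 (28.2%) for macrophage regulators. For all tested genes the share was 2341 of 13851 (16.9%). List shares count every measured member, while the last share counts tested genes only, so their bases differ. Probe sets and tested genes were chosen on the modelled arrays, most of them induced macrophages. That choice favours high macrophage values in all these shares, and by how much was not tested. For Cd79b the highest of the 19 arrays was 9.73 in fetal liver, and for Pou2af1 it was 9.34 in fetal liver. The highest Ebf1 value among them was 8.17 in fetal liver, which both scramble arrays exceeded, by at least 0.25. For Vpreb1, Igll1 and Btk fetal liver was higher, at up to 11.66, 10.88 and 10.02; fetal liver holds blood progenitors. In the macrophages with other shRNAs, Cd79b was at 11.82 to 11.92 with Ebf1 shRNA and 12.43 to 12.53 with Pou2af1 shRNA. The pre-B cells before conversion and primary macrophages were not analysed here, so whether these B lineage levels were kept from the starting cells cannot be told from this comparison.

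**Figure D4:**
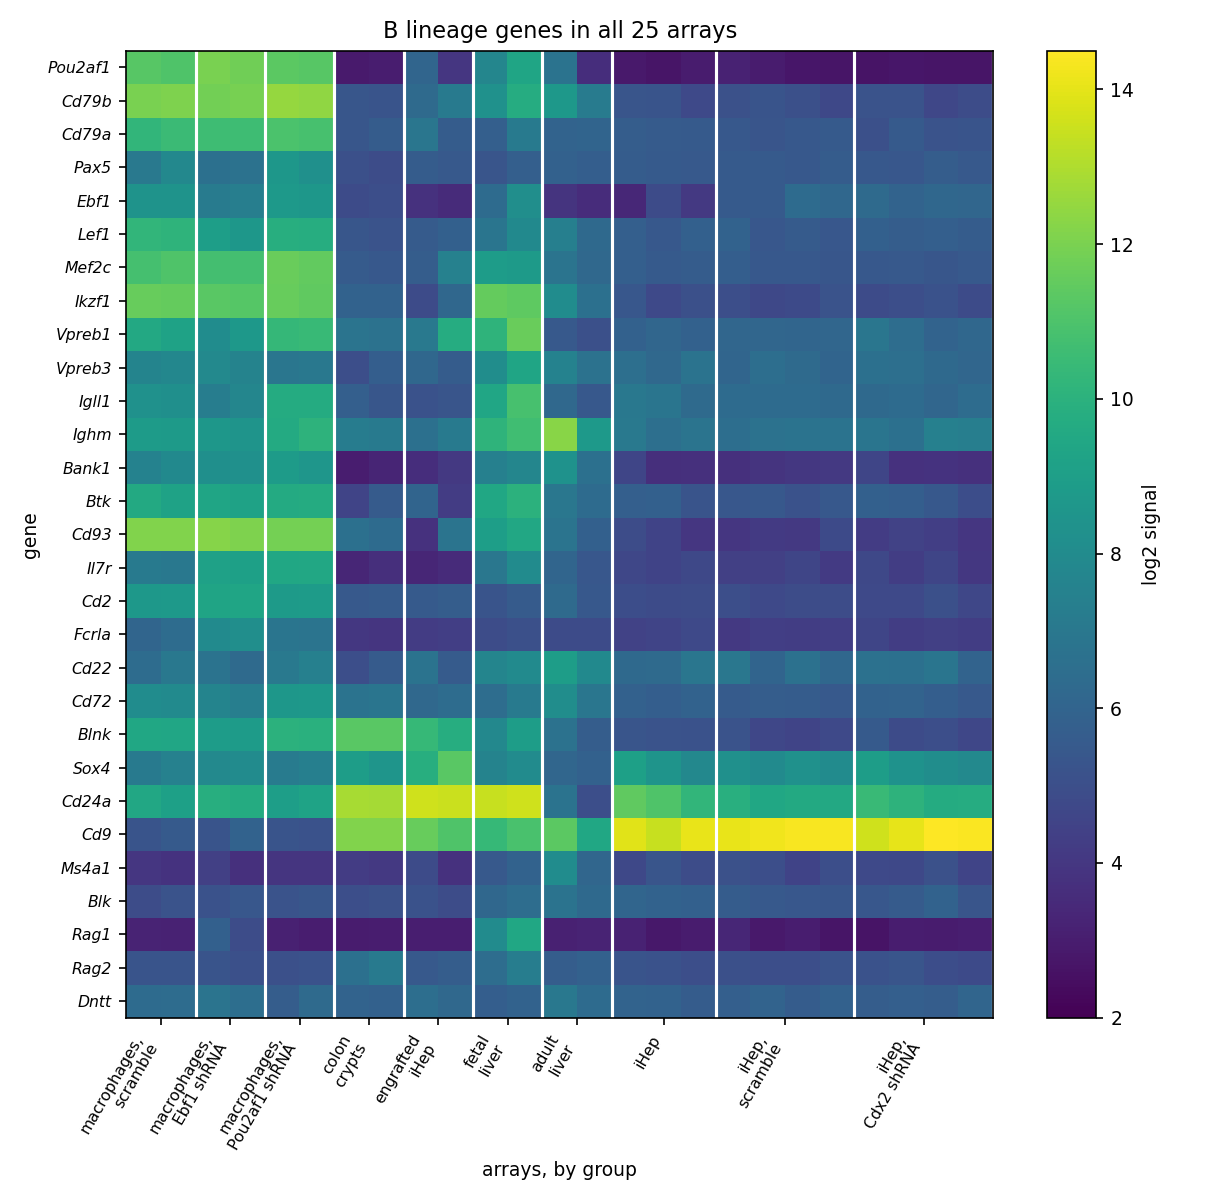
Log2 signal (colour) of 29 B lineage genes (rows) in the 25 arrays (columns, divided by group). Pou2af1, Cd79b, Cd79a and Mef2c are high in the 6 macrophage arrays, while Ms4a1 and Blk stay low there and Cd9 is higher in the colon and iHep arrays.

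Of 48 tested junction and keratin genes, 48 were called higher in colon and 0 in macrophages, and 42 passed 8-fold, with a median of −5.65; at an unadjusted limma p under 0.05 the count higher in macrophages was also 0. Epcam, an epithelial adhesion molecule, was at 4.84 and 5.08 in macrophages and 13.61 and 13.67 in colon, a difference of −8.68 ± 0.13 (limma adjusted p = 1.16e-08). Krt8 and Krt18, the paired keratins of simple epithelium, differed by −8.62 ± 0.24 and −8.07 ± 0.33, and Krt20, of the mature colon surface, by −7.12 ± 0.13. Cldn7 and Cldn23, tight junction claudins, differed by −8.53 and −8.18, and Dsp, of desmosomes, by −8.46. Lgals4, a gut galectin, was at 8.59 and 8.55 in macrophages and 14.01 and 14.02 in colon, so its macrophage signal lay well above background. Itga6, a laminin receptor chain shared with blood cells, had a small difference, −1.74 ± 0.13.

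Intestinal transcription factors lay on the colon side with few exceptions. Of 47 tested, 43 were called higher in colon and 3 in macrophages, with 30 and 0 past 8-fold and a median of −3.63. Klf5, a factor of proliferating crypt cells, was at 4.52 and 5.18 in macrophages and 13.42 and 13.21 in colon. The ETS factors Ehf and Elf3 differed by −7.15 ± 0.18 and −6.02 ± 0.13, and Esrp1, which sets epithelial splicing, by −7.86 ± 0.21. Cdx1 differed by −6.49 ± 0.19, and Cdx2 was at 6.21 and 5.59 in macrophages and 10.94 and 10.40 in colon. The nuclear receptors Hnf4a, Vdr and Nr1i2, the last a sensor of foreign compounds, differed by −4.96 ± 0.17, −4.50 ± 0.29 and −5.05 ± 0.17. Foxa1 and Foxa3 differed by −6.54 ± 0.26 and −5.95 ± 0.15. The hindgut position genes named here were also higher in colon, with Hoxb13 at −5.02, Hoxa13 at −4.32 and Hoxd13 at −3.41. Atoh1 and Spdef, which direct secretory cells, differed by −4.02 ± 0.16 and −4.62 ± 0.21. The 3 exceptions, Gfi1, Bcl6 and Prdm1, are also blood regulators and differed by 1.29, 0.64 and 0.63. Without macrophage replicate 2 or either colon replicate Prdm1 was not called (limma adjusted p of 0.227, 0.0518 and 0.175). With all 25 arrays in the model none of the 3 was called, at limma adjusted p of 0.102 for Gfi1, 0.332 for Bcl6 and 0.0728 for Prdm1. Gata4 and Gata5 were near background or not called, at 5.32 and 5.31 and 5.25 and 5.48 in colon.

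Products of the crypt cell types followed. Of 25 tested goblet cell genes, 23 were called higher in colon and 1 in macrophages, with 21 and 0 past 8-fold and a median of −5.02. Muc2, the gel-forming mucin, was at 6.35 and 6.15 in macrophages and 12.82 and 12.82 in colon, and Agr2, which folds it, at 3.40 and 3.58 in macrophages and 12.42 and 12.63 in colon. Clca1 and Zg16, secreted into mucus, differed by −8.75 and −8.21, and Spink4 by −7.60. Of 38 colonocyte transport genes, 33 were called higher in colon and 2 in macrophages, with 21 and 0 past 8-fold. Car1, a carbonic anhydrase, was at 4.35 and 4.42 in macrophages and 13.40 and 13.40 in colon, Slc26a3 at 4.42 and 4.62 in macrophages and 12.44 and 12.48 in colon, and Cftr, the chloride channel, at 3.06 and 3.13 in macrophages and 10.28 and 10.26 in colon. Slc5a8, which takes up butyrate, differed by −7.86 ± 0.13. The exceptions were Slc2a3, a glucose transporter, at 1.93, and Aqp9 at 1.71.

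Brush border genes shared that direction and lipid genes did so in part. Of 38 tested, 31 were called higher in colon and 3 in macrophages, with 25 and 0 past 8-fold and a median of −5.26. Fabp2 was at 4.48 and 3.98 in macrophages and 13.50 and 13.58 in colon, a difference of −9.31 ± 0.35. Vil1, which bundles actin in microvilli, was at 4.41 and 4.76 in macrophages and 12.34 and 12.31 in colon. Cdhr2 and Cdhr5, the protocadherins that link microvilli, differed by −6.71 ± 0.11 and −6.47 ± 0.23. The 3 genes higher in macrophages all store fat: Plin2, which coats lipid droplets, was at 13.81 and 13.76 in macrophages and 11.55 and 11.56 in colon, and Dgat1 and Dgat2, which make triglyceride, differed by 0.51 and 0.99. Fabp1, Apoa4 and Apoa1 were not called, at 5.10 and 4.84, 6.57 and 6.28 and 6.35 and 6.68 in colon.

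Genes of rarer crypt cells were only in part higher in colon. Of 21 tested stem cell and Wnt genes, 13 were called higher in colon and 5 in macrophages, with 7 and 1 past 8-fold. Lgr5, the marker of crypt base stem cells, was at 4.74 and 4.51 in macrophages and 6.98 and 5.54 in colon, above the percentile in too few arrays to be tested; Olfm4 was at 3.08 and 3.14 in colon, near background. Reg4, of deep crypt secretory cells, was at 4.31 and 4.35 in macrophages and 12.75 and 12.59 in colon, and Prom1 and Lgr4, a receptor of R-spondin, differed by −8.53 ± 0.22 and −6.94 ± 0.35. Cd44, shared by crypt base and leukocytes, was higher in macrophages by 3.74 ± 0.12. Of 25 enteroendocrine and tuft genes, 14 were called higher in colon and 3 in macrophages, with 6 and 2 past 8-fold. Those 3 were Gfi1b, Alox5ap and Sh2d6. The hormone genes Insl5, Gcg and Pyy differed by −6.36 ± 0.21, −5.92 ± 0.15 and −5.75 ± 0.14, and Chga, of secretory granules, by −4.02 ± 0.15. Gfi1b and Alox5ap, which tuft cells share with blood cells, were higher in macrophages, at 11.09 and 11.16 in macrophages and 4.96 and 5.27 in colon for Gfi1b and 5.59 for Alox5ap. Of 16 gut antimicrobial genes, 11 were called higher in colon and 1, Lyz1, in macrophages (2 without colon replicate 1); Lyz1 and Lyz2 are near-identical copies, so their signals may share targets. Pigr, which carries IgA into the gut, was at 4.99 and 5.04 in macrophages and 12.26 and 12.31 in colon, whereas Reg3b and Reg3g were near background, at 5.08 and 5.09 and 4.91 and 5.58 in colon.

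Chosen pairs of related genes often stood on opposite sides. There were 38 pairs with values for a blood-cell gene and an epithelial or general relative. In 24 of them the first was called higher in macrophages and the second in colon. Singly, 35 first genes were called higher in macrophages and 27 second genes in colon, against 38.1% and 29.5% of all tested genes. The pairs were chosen for this contrast with earlier results known, so the choice itself favoured opposite sides. The share among other gene pairs was not counted. In 8 pairs both were called higher in macrophages and in 2 both in colon. Among actin bundlers, Lcp1 differed by 4.13 ± 0.11 and its gut relative Pls1 by −7.05 ± 0.15. For the WAVE complex the pair Nckap1l and Nckap1 differed by 4.73 and −7.25, and for integrin β chains Itgb2 and Itgb4 by 5.92 and −5.45. Myo1f and Myo1a, short-tailed myosins, differed by 3.72 and −6.84, and the phosphatases Ptprc and Ptprf by 4.65 and −4.77. The ETS factors Spi1 and Ehf, at 4.88 and −7.15, and the filament genes Vim and Krt8, at 4.85 and −8.62, gave the widest gaps. Other pairs did not divide. Rac2 differed by 5.19 ± 0.15 and the general Rac1 by 0.30 ± 0.11, and Pik3cd by 4.90 ± 0.12 with Pik3ca at 1.57 ± 0.16. Rac1 lost its call when any of the 4 arrays was left out (limma adjusted p of 0.0651 to 0.15). Runx3 exceeded Runx1 in difference, at 5.10 against 2.20. Lgals3, a galectin usually abundant in macrophages, was at 5.22 and 5.09 in macrophages and 14.02 and 13.91 in colon, lower in macrophages by 8.81 ± 0.23 (limma adjusted p = 4.46e-08), on the side of its gut relative Lgals4.

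**Figure D5:**
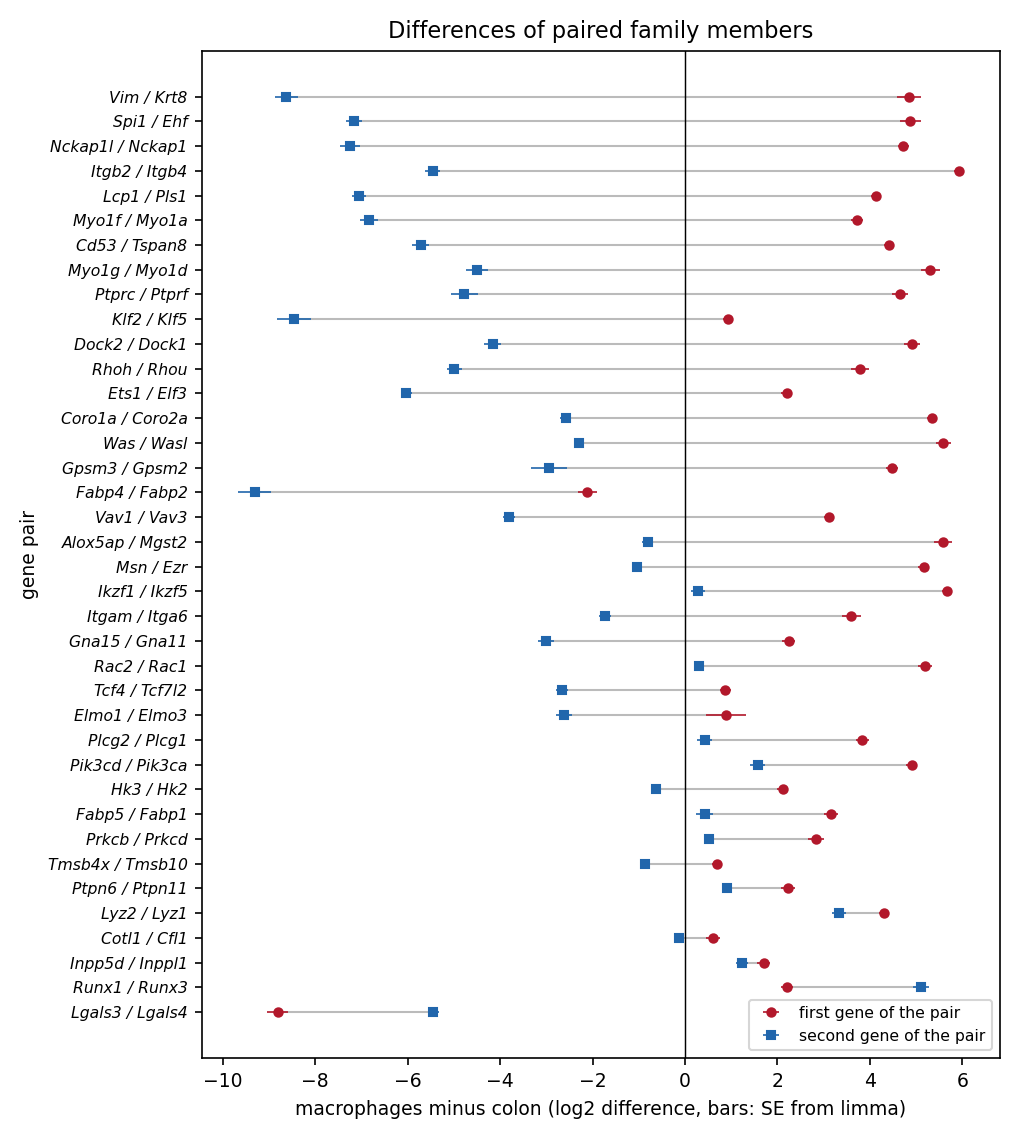
Difference between macrophages and colon (x axis, log2, bars are the SE of limma) for both genes of 38 pairs, with the first gene of each name as a red circle and the second as a blue square. In 24 pairs the circle is called right of 0 and the square called left of it; Lgals3 and Lgals4, at the foot, lie on the colon side together.

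Genes of proliferation did not move as a group. Of 44 tested cell cycle genes, 18 were called higher in macrophages and 17 in colon, against 38.1% and 29.5% of all tested genes. Past 8-fold there were 3 in each direction, and the median was 0.29. Mki67, the proliferation antigen, was at 7.19 and 7.29 in macrophages and 11.07 and 11.02 in colon, E2f2, an S phase regulator, at 5.87 and 5.84 in macrophages and 9.99 and 10.00 in colon, and Ccna2, cyclin A2, at 5.67 and 5.95 in macrophages and 9.10 and 8.95 in colon. Higher in macrophages were Cdkn2a, a brake on the cell cycle, at 9.71 and 10.05 in macrophages and 4.39 and 4.58 in colon, Tyms, which makes thymidylate, at 3.68, and Ccnd3 at 2.69. Myc differed by 2.06 ± 0.16, with Mycn described above. Top2a and Mcm3 were not called, at 0.30 and 0.29, and under other probe set rules both were called the other way, Top2a at −0.50 with the mean of its probe sets and Mcm3 at −1.03 without those ending in _x_at or _s_at. Of 27 MYC, RAS and ETS signalling genes, 17 were called higher in colon and 9 in macrophages. The growth factor receptors Erbb3 and Erbb2 and the ligand Hbegf were higher in colon, at −7.31, −4.18 and −7.60. Fli1, an ETS factor of blood, was at 10.08 and 10.06 in macrophages and 3.64 and 4.91 in colon.

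Of 40 tested glycolysis and mitochondrial genes, 26 were called higher in colon and 10 in macrophages, with 5 and 2 past 8-fold. Pck1, of gluconeogenesis, was at 4.93 and 4.81 in macrophages and 10.56 and 10.26 in colon, and Cox7a1, a respiratory subunit, differed by −5.10 ± 0.24. Aldoc and Fbp2 were lower in macrophages, at −4.48 and −4.62, while Eno2, Fbp1 and Hk3 were higher, at 5.37, 4.26 and 2.12. Ldha, Aldoa and Tpi1, of general glycolysis, were not called, at −0.19, 0.23 and −0.25. Of 15 housekeeping genes, 8 were called higher in macrophages and 1 in colon, with 0 past 8-fold and a median of 0.28. Actb was at 14.02 and 14.25 in macrophages and 14.09 and 14.21 in colon and Hprt at 11.49 and 11.38 in macrophages and 11.29 and 11.26 in colon, neither called.

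Markers of other cells were few, and some were called on either side. Of 16 tested mesenchyme genes, 7 were called higher in colon and 3 in macrophages, and all 25 arrays in the model left 2 higher in colon. Col3a1 and Col1a1, collagens of fibroblasts, were at 5.05 and 5.27 in macrophages and 7.93 and 8.30 in colon for Col3a1 and 5.34 and 5.50 in macrophages and 7.08 and 7.14 in colon for Col1a1, whereas Dcn and Pdgfra stayed near background in all 4 arrays. The 3 genes higher in macrophages, Vim at 4.85, Acta2 at 2.37 and Pecam1 at 2.31, include genes that leukocytes express. Of 27 lymphocyte and mast cell markers, 10 were tested. Of these, 2 were called higher in macrophages, Siglecf and the CD3 chain gene Cd3d, and 1, Kit, in colon. Without macrophage replicate 1 the count higher in macrophages was 1, and when either colon array was left out the count higher in colon was 2. Cd3e and Cd3g were near background in all 4 arrays, at 4.90 and 5.23 and 3.83 and 3.95 in colon. Of 7 tested erythroid and liver markers, 0 were called higher in macrophages by limma, also 0 at an unadjusted p under 0.05, and 4 in colon; without colon replicate 2 or with no filter, 1 was called higher in macrophages. Those in colon included Ttr, a carrier of thyroid hormone, at 5.77 and 5.80 in macrophages and 10.55 and 10.26 in colon. The part of stromal cells in the colon values was not tested.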

How the data were processed

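RNA of 4 arrays was compared, 2 of scramble induced macrophages and 2 of colon crypts. The deposited values are log2 signals per probe set that the authors made with RMA, per the submitters' processing notes; version and annotation are not given in the sources used here. Arrays hold no read counts, and their number limits the precision.

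Of 45101 probe sets, 34945 had 1 gene symbol in the platform annotation, 932 several, 9160 none listed, and 64 were controls; looking up Entrez IDs changed 0 symbols, and 204 IDs were not found. Each of 18193 genes was read from the probe set that averaged highest across the 8 modelled arrays, a choice that bears on 9010 genes and that 6 macrophage arrays dominate. Of 4812 called genes with more than 1 tested probe set, 689 (14.3%) had one of the other sign.

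The model (limma 3.58.1, R 4.3.3; lmFit and eBayes) held scramble, Ebf1 shRNA and Pou2af1 shRNA macrophages and colon, 2 arrays each, with 4 residual degrees of freedom. The shRNA groups entered no comparison, but served the estimate of spread, the choice of probe set and the filter. A gene was tested where it lay above the 40th percentile in at least 2 of the 8 arrays, and called where the two-sided p, adjusted by Benjamini-Hochberg over all tested genes, was under 0.05. On simulated data of 13851 genes made from these arrays, 50 genes were changed at each log2 size. There, 62% of log2 changes of 1, 96% of 2 and 100% of 3 and 5 were recovered, with 3.24% false among those called. In the comparison itself 67.6% of the tested genes were called. Recovery and the false share with so many changed genes were not tested, so these values do not describe the comparison itself.

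Gene lists, pairs and motifs were chosen with earlier results of these data known, so no list was tested. List counts are to be read against the shares of all tested genes. Those were 38.1% called higher in macrophages and 29.5% in colon, and 4.13% and 7.83% past 8-fold. Named genes were the 15 largest differences in each direction among called genes whose groups did not overlap (clone-style symbols passed over), up to 8 called members per list and direction and up to 4 not called, every member of the macrophage, B lineage and intestinal regulator, pre-B receptor, V(D)J and cytokine receptor lists, the cell type markers, the pairs, Rag2, Il2rg and the shRNA targets; exceptions are stated where they stand. Python 3.11.15 and matplotlib 3.10.9 made the plots. Alternatives were other filters, probe set rules, normalizations, arrays in the model, variance models, a minimum log2 difference of 1, a replicate block and each array left out.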

Additional observations from a re-analysis of the deposited data

How the results depend on the processing

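The number of genes called, 9369, stayed between 8052 (all 25 arrays in 1 model) and 9719 (no filter) under the alternatives other than a minimum log2 difference of 1. That minimum left 5430 genes, 2682 higher in macrophages and 2748 in colon, by its construction. Leaving out each of the 4 arrays in turn gave 8278 to 8941 genes; the lone array of a group was then assumed to vary like the others. With the replicate number as a block, 9236 genes were called; same-numbered arrays of macrophages and colon deviated with a correlation of −0.02 over genes, so they share only a number. The share of calls higher in macrophages was 54.5% to 58.4%, and 49.4% with the minimum. Signs of called genes turned under other probe set rules alone: in 164 with the mean of all probe sets, 55 of them called, and in 50 without probe sets whose names mark shared sequence (_x_at, _s_at), 18 of them called. Among the named genes, 4 that were not called became called in the other direction: with the mean of probe sets Fosl2 was at −0.41, Ikzf3 at 0.42 and Top2a at −0.50, and without those marked probe sets Mcm3 was at −1.03. Centring the arrays or repeating the quantile normalization ended no call among the named genes. In 1 model of all 25 arrays, 13 named genes lost their call, among them Fos, Jun, Ifit1 and H2-Ab1. With 2 arrays a group, 1 cell line and macrophage signals under the 40th percentile in both arrays for 691 of the 1085 genes 8-fold higher in colon (colon signals for 242 of 572 higher in macrophages), the sizes of such differences are only roughly known.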
